A study of Homo sapiens with 4 samples.

Results

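The 6 genes that encode the proteolytic subunits of the proteasome and the gene of their assembly factor POMP were examined in Kasumi-1 cells depleted of ANP32B. The members were PSMB5, PSMB6 and PSMB7 (constitutive proteasome), PSMB8, PSMB9 and PSMB10 (immunoproteasome) and POMP. All 7 were found among the 18567 genes of the table and all 7 passed the filter on low values. PSMB5 was singled out because its level was much lower in the knockdown samples, so its own difference is described here without a test, and the question was whether the other 6 genes, chosen by function, shared it.

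Kasumi-1 is an established acute myeloid leukemia (AML) line with the RUNX1-RUNX1T1 fusion. RNA was sequenced from 4 samples of this line, 2 called NC and 2 called sh-ANP32B. By their labels the NC cells had no treatment and carried no hairpin. The methods instead give the stable lines used as controls an sh-NC hairpin, with puromycin selection, so the history of the NC cells is not settled. The sh-ANP32B cells were knocked down for ANP32B, a histone-binding nuclear phosphoprotein, and the labels do not say which hairpin each sample carried. Nothing states that the replicates came from separate infections, so p-values measure the spread between these samples only. The values are TPM, transcript abundances scaled to transcript length and to the total of each sample, and the sequencing depth is unknown.

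The proteasome degrades proteins tagged with ubiquitin. Its 20S core is a barrel in which only 3 kinds of beta subunit cut peptide bonds, PSMB5 after hydrophobic residues (chymotrypsin-like), PSMB6 after acidic residues (caspase-like) and PSMB7 after basic residues (trypsin-like). Interferon induces PSMB8, PSMB9 and PSMB10, which take the places of PSMB5, PSMB6 and PSMB7 in newly built cores and alter the peptides offered on MHC class I. POMP chaperones the beta subunits into the growing core. PSMB5 is the main target of bortezomib and related proteasome inhibitors used in blood cancers.

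The labels were checked first. ANP32B was 383.8 and 392 TPM in the NC samples and 51.8 and 41.2 TPM in the sh-ANP32B samples. MYC, which the study followed, fell from 130.8 and 143.8 TPM to 56.7 and 63.2 TPM, by 1.18 on the log2 scale (limma adjusted p = 0.0261). Of the markers of the line, RUNX1T1 lay between 15.6 and 31.2 TPM, CD33 between 58.5 and 70.1 TPM and KIT between 1.55 and 3.41 TPM, while CD34 and MPO were not analysed here. Among markers of other blood cells, CD79A lay between 0 and 2.17 TPM and NCAM1 between 27.3 and 39.6 TPM.

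PSMB5 (ENSG00000100804, hg38 chr14:23016543-23035230, minus strand) was 77.9 TPM in NC replicate 1 and 80.5 TPM in NC replicate 2. It was 18.6 TPM in sh-ANP32B replicate 1 and 22.4 TPM in sh-ANP32B replicate 2. Both knockdown samples lay far below both NC samples, and the replicates of each group lay close together. The NC mean was 79.2 ± 1.83 TPM and the knockdown mean 20.5 ± 2.68 TPM (SD, n = 2), so that 25.9% of the NC level was left. On the log2(TPM + 1) scale the fold change was -1.91 (SE 0.157), and 10 of the 16817 genes tested, PSMB5 included, had a fold change this low or lower. Lower RNA per cell and fewer cells that express a gene cannot be told apart in bulk samples.

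**Figure D1:**
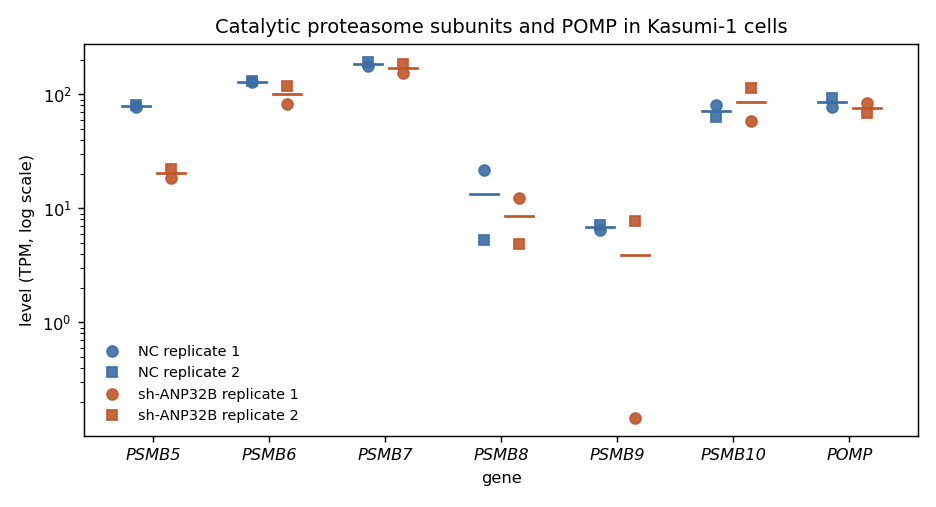
Level of each gene in TPM (log axis) in the 4 samples, with NC in blue, sh-ANP32B in orange, circles for replicate 1, squares for replicate 2 and bars at the group mean. PSMB5 is the gene whose groups stand widely apart, from 77.9 and 80.5 TPM to 18.6 and 22.4 TPM, while PSMB8 and PSMB9 are spread widely within a group.

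Promoters are shown for PSMB5, on which the result turns, and for PSMB10, the immunoproteasome gene for which no further copy was found, so that their sequence can be set side by side. RefSeq promoter windows on GRCh38.p14, from 250 bases before to 50 after a start site, were held for 5 of the 7 genes (7 windows in all), and PSMB6 and PSMB7 had none in this set. The element bound by interferon regulatory factors, searched on both strands as GAAA, any 2 bases and GAAA again, was found in a window of PSMB8 and in that of PSMB10, and in 3.57% of 35116 windows of all genes. It was in neither window of PSMB5. The E-box CACGTG, bound by MYC, was in 0 of the 7 windows and in 7.26% of all windows. The antioxidant response element TGACNNNGC, bound by the NFE2L factors, was in the window of PSMB9 and in 13.3% of all windows. These are matches of letters, not sites shown to be used. Each sequence is the 200 bases before the start site (for PSMB5 that of the window at lower coordinates), 5′ to 3′ on the minus strand, the strand of both genes, at chr14:23034901-23035100 for PSMB5 and chr16:67936851-67937050 for PSMB10. Capitals mark the interferon regulatory factor element, which PSMB5 lacks there.
PSMB5: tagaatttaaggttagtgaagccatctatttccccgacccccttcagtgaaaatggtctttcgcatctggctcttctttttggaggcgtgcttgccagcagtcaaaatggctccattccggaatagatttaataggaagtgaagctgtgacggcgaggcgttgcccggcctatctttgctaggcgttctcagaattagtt
PSMB10: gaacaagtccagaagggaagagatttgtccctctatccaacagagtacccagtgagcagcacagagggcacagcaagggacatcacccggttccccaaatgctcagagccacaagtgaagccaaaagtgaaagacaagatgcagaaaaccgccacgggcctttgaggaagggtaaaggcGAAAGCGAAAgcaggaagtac

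PSMB6 (chr17:4796144-4798502, plus strand), the caspase-like subunit, had 128.9 and 130.3 TPM in the NC samples. It reached 83.1 TPM in knockdown replicate 1 and 118.8 TPM in knockdown replicate 2. Both knockdown samples were below both NC samples, but replicate 2 was nearer to NC than to replicate 1. The log2 fold change was -0.38 (SE 0.186, 95% interval -0.82 to 0.07, limma adjusted p = 0.273). After correction for the GC content of each gene it was -0.50 and passed the threshold (limma adjusted p = 0.0468, and 0.0441 with the replicate number as a block besides). It also passed without sh-ANP32B replicate 2, at -0.63 (limma adjusted p = 0.00305). PSMB7 (chr9:124353465-124415444, minus strand), the trypsin-like subunit, had the highest level of the 7 genes in every sample, 177.9 and 193.4 TPM in the NC samples against 154.1 and 184.3 TPM after knockdown. Its groups overlapped, with a log2 fold change of -0.14 (SE 0.142, 95% interval -0.48 to 0.20, limma adjusted p = 0.611).

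POMP (chr13:28659065-28678959, plus strand), the assembly factor, had 77.3 and 93.8 TPM in the NC samples against 83.7 and 69.2 TPM after knockdown. The groups overlapped, with a log2 fold change of -0.16 (SE 0.165, 95% interval -0.55 to 0.23, limma adjusted p = 0.613). PSMB10 (chr16:67934506-67936864, minus strand), the trypsin-like subunit of the immunoproteasome, was 80.6 and 63.8 TPM in NC. It was 58.1 TPM in sh-ANP32B replicate 1 and 113.7 TPM in replicate 2, which were the lowest and the highest value of the 4 samples. Its log2 fold change of 0.18 (SE 0.305, 95% interval -0.55 to 0.91, limma adjusted p = 0.775) was smaller than the gap of 0.96 between the knockdown replicates. It became -0.04 after GC correction. The gene also shares 1512 bases with ENSG00000261884 on the same strand, which lay between 3.03 and 5.88 TPM. Without sh-ANP32B replicate 2 it was -0.30, and without sh-ANP32B replicate 1 it was 0.66 (limma adjusted p = 0.0098).

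PSMB8 and PSMB9, which lie on opposite strands in the MHC region, had low values that differed between replicates. PSMB8 (chr6:32840717-32844679, minus strand), the chymotrypsin-like subunit that replaces PSMB5, had 21.5 and 5.28 TPM in the NC samples against 12.4 and 4.85 TPM after knockdown. The NC replicates thus differed 4.08-fold, and the log2 fold change was -0.43 (SE 0.631, 95% interval -1.94 to 1.08, limma adjusted p = 0.733). Its direction turned with the samples used, since it was 0.49 without NC replicate 1, 0.17 without sh-ANP32B replicate 2, and -1.35 without NC replicate 2 (limma adjusted p = 0.0347). PSMB9 (chr6:32844136-32859851, plus strand), the counterpart of PSMB6, had 6.48 and 7.21 TPM in the NC samples. It was at 0.145 TPM in knockdown replicate 1 and at 7.68 TPM in knockdown replicate 2. The knockdown replicates lay on both sides of NC. Its log2 fold change of -1.31 (SE 0.835, 95% interval -3.31 to 0.68, limma adjusted p = 0.391) rests on replicate 1, without which it was 0.15. Without replicate 2 it was -2.77 (limma adjusted p = 0.00121), and with the replicate number as a block the limma adjusted p was 0.0041. With a pseudocount of 0.1 the difference was -2.33.

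The levels of PSMB8 and PSMB9 are uncertain for a further reason. The hg38 sequence used here holds alternate versions of the MHC region as separate contigs, and the canonical transcripts of PSMB8 and of PSMB9 each matched 7 alternate contigs, with an identity of at least 99.9% for PSMB8 and 99.8% for PSMB9. PSMB5, PSMB6, PSMB7, PSMB10 and POMP matched 0. Whether the authors counted on a genome with these contigs is not given in the sources used here. If so, reads of both genes were divided among copies, and the values above are those of the primary gene ID only and understate the level of the gene. The table held 1581 gene IDs that the annotation of the primary chromosomes does not name, which took 3.03% to 3.57% of the TPM of a sample, and none of them was assigned to a gene here. Some of these IDs may be copies of PSMB8, PSMB9 or other MHC genes, so for these 2 genes neither the level nor the difference between samples is settled. PSMB8 and PSMB9 also overlap each other on opposite strands over 544 bases, PSMB9 shares 8608 bases with TAP1, and whether counting used strand is not stated.

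Of the 6 genes other than PSMB5, 0 had a limma adjusted p under 0.05, against 3.32% of all genes tested. At an unadjusted p under 0.05 the count was again 0, where 23.8% of all genes passed. PSMB6 was the only member besides PSMB5 whose groups did not overlap, while 21.4% of all genes tested were lower and 33.2% higher without overlap. The fold changes of 5 of the 6 were below 0 and that of PSMB10 was above, where 7076 of the 16817 genes tested were below. The median was -0.27 over the 6 beside 0.08 over all genes tested. The lower bounds of the 95% intervals of PSMB6, PSMB7, PSMB10 and POMP were -0.82, -0.48, -0.55 and -0.55, and those of PSMB8 and PSMB9 were -1.94 and -3.31. Whether any of them differed from PSMB5 was not tested, since PSMB5 was chosen by its value. The calls of single members under other settings belong to fits in which the share of all genes called was 16.6% (GC correction), 8.76% (replicate block), 12% (both), 1.62% (without NC replicate 2), 24.3% (without sh-ANP32B replicate 1) and 20.7% (without sh-ANP32B replicate 2). Without the genes that have copies on alternate contigs, 0 of 4 members were called.

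In the NC samples the order of mean levels was PSMB7, PSMB6, POMP, PSMB5, PSMB10, PSMB8 and PSMB9. POMP and PSMB5, PSMB5 and PSMB10, and PSMB8 and PSMB9 overlapped in their ranges, whereas the other neighbours in the order did not. In the sh-ANP32B samples the order was PSMB7, PSMB6, PSMB10, POMP, PSMB5, PSMB8 and PSMB9. PSMB5 was separated there from POMP above it and from PSMB8 below it, while PSMB6 and PSMB10, PSMB10 and POMP, and PSMB8 and PSMB9 overlapped.

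Ratios of TPM within a sample do not depend on how samples are scaled to each other. PSMB5 reached 0.604 and 0.618 of the PSMB6 level in NC and 0.224 and 0.188 of it in sh-ANP32B. Relative to PSMB7 it was 0.438 and 0.416 in NC and 0.121 and 0.121 in sh-ANP32B, a difference of -1.82 in log2. Relative to POMP it was 1.01 and 0.858 in NC and 0.222 and 0.323 in sh-ANP32B. In each of these 3 ratios the groups lay apart by far more than their replicates, which again describes the gene that was chosen for its low level. The ratios that leave PSMB5 out differed less between the groups. PSMB6 to PSMB7 was 0.724 and 0.674 in NC and 0.540 and 0.645 in sh-ANP32B, without overlap and with a log2 difference of -0.24. PSMB6 to POMP and PSMB7 to POMP overlapped between the groups, with log2 differences of -0.22 and 0.02. With 2 samples in each group the smallest two-sided p of an exact permutation test is 0.333, so the ratios are given without a test.

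**Figure D2:**
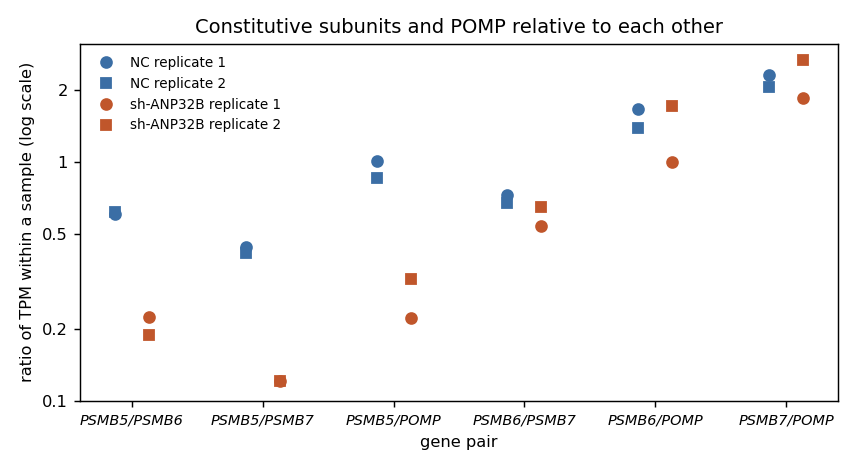
Ratios of TPM between pairs of constitutive subunits and POMP in each of the 4 samples (log axis), with NC in blue, sh-ANP32B in orange, circles for replicate 1 and squares for replicate 2. The 3 ratios with PSMB5 on top lie between 0.416 and 1.01 in NC and between 0.121 and 0.323 in sh-ANP32B, while PSMB6 to POMP and PSMB7 to POMP overlap between the groups.

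PSMB5 made up 20.2% and 19.9% of the summed TPM of the 3 constitutive catalytic genes in NC and 7.27% and 6.87% in sh-ANP32B. The share of PSMB6 was 33.5% and 32.2% in NC and 32.5% and 36.5% in sh-ANP32B, and that of PSMB7 was 46.3% and 47.9% in NC and 60.2% and 56.6% in sh-ANP32B. The shares of a sample add up to a fixed whole, so a lower share of PSMB5 leaves more for PSMB6 and PSMB7. The higher share of PSMB7 is therefore not a separate result. In TPM, PSMB7 was 177.9 and 193.4 in NC and 154.1 and 184.3 in sh-ANP32B, with overlap. The 3 genes summed to 384.7 and 404.2 TPM in the NC samples and to 255.8 and 325.5 TPM after knockdown. This sum includes PSMB5, chosen for its low level, so its lower values in part repeat that choice.

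The ratio of each immunoproteasome subunit to the constitutive subunit it replaces was also compared. PSMB8 to PSMB5 was 0.277 and 0.0656 in NC and 0.665 and 0.217 in sh-ANP32B, so the groups overlapped although PSMB5 was lower in both knockdown samples. The log2 difference was 1.49, and leaving out each replicate in turn gave 0.46 to 2.53. PSMB9 to PSMB6 was 0.0503 and 0.0553 in NC and 0.00174 and 0.0646 in sh-ANP32B. PSMB10 to PSMB7 was 0.453 and 0.330 in NC and 0.377 and 0.617 in sh-ANP32B. Neither of these pairs separated the groups, and the first 2 ratios carry the uncertainty of PSMB8 and PSMB9.

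The gap between the knockdown replicates followed GC content across all genes tested with an annotated transcript (Spearman rho 0.577 over 15427 genes, a description of these 2 libraries). For the gap between the NC replicates, likewise replicate 2 minus replicate 1, the rho was -0.206. In their knockdown gap the members were set beside genes within 1 percentage point of their own GC content. PSMB10, with 61.7% GC, was higher in sh-ANP32B replicate 2 than in replicate 1 by 0.96 in log2, and the median of 659 genes of like GC content was 0.36. PSMB6, with 54.5% GC, was higher by 0.51 where the median of its 923 genes was 0.16. POMP, with 39.4% GC, had a gap of -0.27 where the median of its 1262 genes was -0.31. PSMB7, with 49.8% GC, had a gap of 0.26 where the median of its 979 genes was 0.00083. PSMB5, with 52.4% GC, had a gap of 0.26 where the median of its 1065 genes was 0.09, and its fold change after GC correction was -1.998. The gaps of PSMB8 and PSMB9, -1.19 and 2.92, were far from the medians of 0.15 and -0.10 at their GC content.

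**Figure D3:**
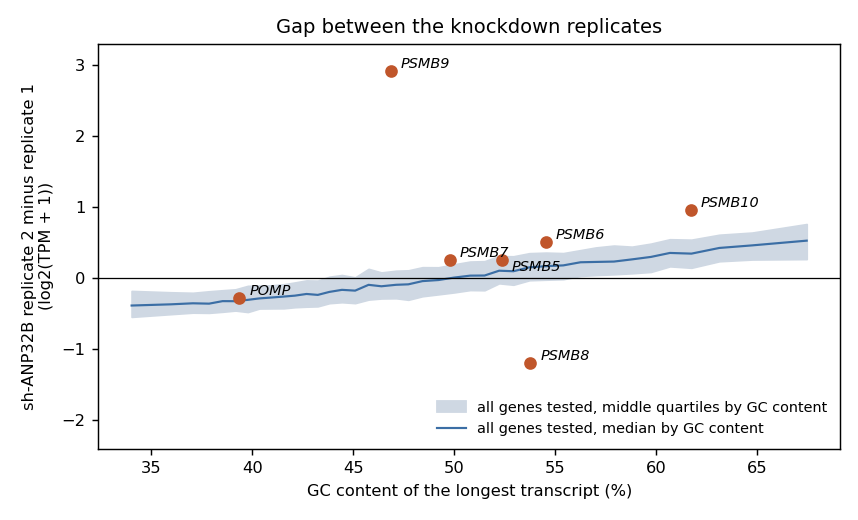
Difference between sh-ANP32B replicate 2 and replicate 1 in log2(TPM + 1) against the GC content of the longest transcript in percent. The line and band are the median and the middle quartiles of all genes tested in bins of GC content, and the points are the 7 members, of which POMP lies close to the line, PSMB10 lies above it at 0.96, and PSMB8 and PSMB9 lie at -1.19 and 2.92.

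The rest of the proteasome was read from the same fit. Of 48 tested genes for other subunits, caps, assembly chaperones and regulators, 1 was called lower and 0 higher, against 1.18% and 2.14% of all genes tested. SEM1, a small subunit of the 19S lid, fell from 47.7 and 42.8 TPM to 22.0 and 18.2 TPM (log2 fold change -1.13, SE 0.168, limma adjusted p = 0.0351). This call was lost without NC replicate 1 (limma adjusted p = 0.0922) and without the abundance trend. The median fold change of the 48 genes was -0.22 beside 0.08 over all genes tested. Below 0 were 39 of the 48, beside 7076 of the 16817 genes tested. With median-of-ratios scaling these counts were 44 and 8392. After GC correction 20 were called lower and 1 higher, where 8.65% of all genes in that fit were called lower and 7.92% higher. With the replicate block 2 were called, against 8.76% of all genes. Leaving out each replicate in turn gave 0 without NC replicate 1 and 1 without NC replicate 2, where 1.93% and 1.62% of all genes were called. It gave 19 without sh-ANP32B replicate 1 and 17 without sh-ANP32B replicate 2, where 24.3% and 20.7% of all genes were called.

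By role, the 30 structural subunits of the 20S core and the 19S cap without catalytic activity had a median log2 fold change of -0.26. Below 0 were 28 of them, beside 7076 of the 16817 genes tested. In the alpha ring of the core, the 7 genes ranged from -0.56 (PSMA4) to -0.05, and in the 4 beta subunits without catalysis from -0.49 to -0.01. The 6 ATPases of the 19S base, which unfold substrates, ranged from -0.50 (PSMC3) to 0.05. By a log2 fold change past 0.5 in size with an unadjusted p under 0.05, 5 of the 48 were lower and 1 was higher, against 6.55% and 12.1% of all genes tested. These are the cutoffs of the study, applied here to limma on log2(TPM + 1), whereas the study used a count model and does not say whether its p was adjusted. The 6 genes are named because they passed these cutoffs, after their values were seen. Besides SEM1, PSMA4 and PSMC3 they were PSME3 (-0.91), a nuclear cap of the core that needs no ATP, PSMG1 (-0.64), a chaperone of alpha ring assembly, and PSMD9 (0.57), a chaperone of 19S base assembly. None of the 48 had a fold change as low as that of PSMB5. Only 10 of the 16817 genes tested were as low, PSMB5 included. PSMB5 was chosen for its low level, so the count says nothing particular about the 48.

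Of the 5 genes for regulators of proteasome transcription and their processing 0 were called, where 3.32% of all genes tested were. A count this low says nothing particular about the 5. All 5 had fold changes above 0, as did 9741 of the 16817 genes tested. Their median was 0.08 beside 0.08 over all genes tested. With median-of-ratios scaling the median over all genes was 0.001, so signs of fold changes near 0.08 depend on the scaling. NFE2L2, DDI2 and AKIRIN2 were higher without overlap, as were 33.2% of all genes tested. NFE2L1, the factor that raises proteasome genes when proteasome activity is short, had 85.0 and 83.9 TPM in the NC samples and 76.3 and 97.6 TPM after knockdown, with overlap. NFE2L2, its relative in the antioxidant response, had 105.9 and 115.1 TPM in the NC samples and 170.0 and 126.5 TPM after knockdown (log2 fold change 0.41, limma adjusted p = 0.212). PSMB11, the thymic counterpart of PSMB5, and PSMA8, the testis alpha subunit, were not analysed here.

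**Figure D4:**
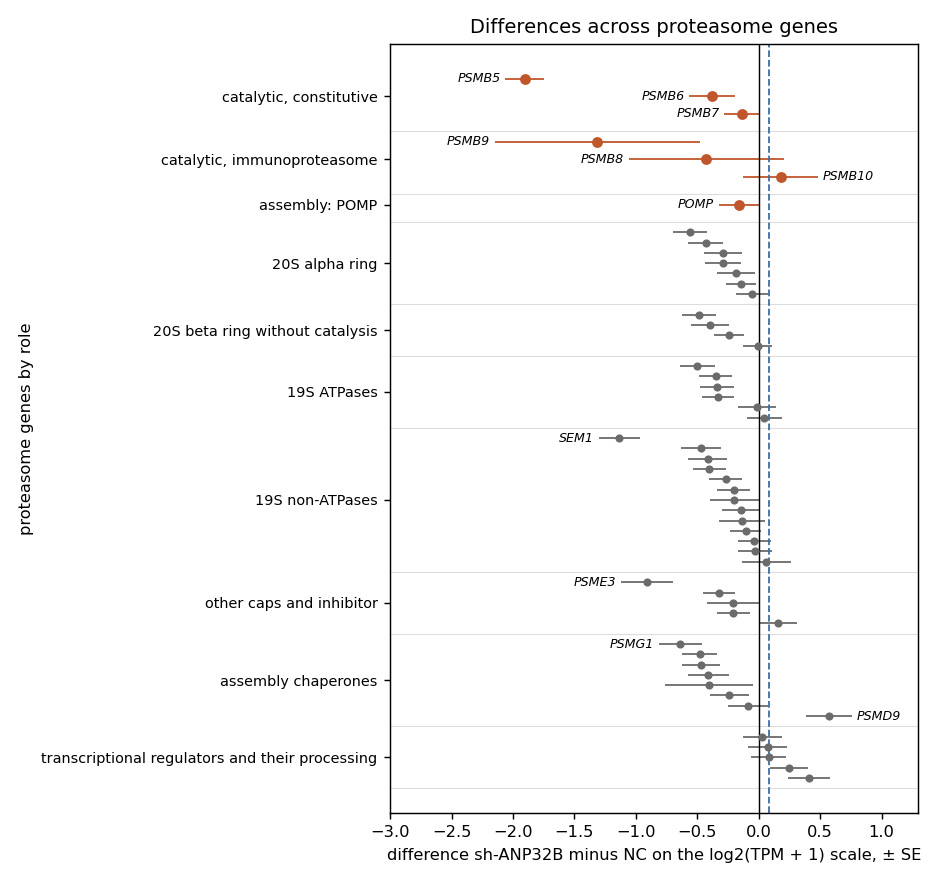
Difference between sh-ANP32B and NC on the log2(TPM + 1) scale with its standard error for the 7 members (orange) and 48 other proteasome genes (grey), grouped by role, with the median of all genes tested as a dashed line. PSMB5 lies at -1.91, SEM1 at -1.13 and PSME3 at -0.91, and 39 of the 48 grey points lie below 0.

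Genes that share the immunoproteasome's role in antigen presentation were compared as well. Of 17 genes for peptide transport and loading, trimming, MHC class I chains and interferon-linked regulators, 0 were called by limma and 3 had an unadjusted p under 0.05, against 3.32% and 23.8% of all genes tested. The median log2 fold change was 0.17 beside 0.08 over all genes. Below 0 were 6 of the 17, beside 7076 of the 16817 genes tested. Among the 6 were 5 of the 7 genes for peptide transport and loading. The 3 genes of the list with the largest change in size were HLA-E (0.61, limma adjusted p = 0.107), TAPBP, which edits the peptides on class I (0.59, limma adjusted p = 0.0989), and NLRC5, the activator of class I genes (0.41, limma adjusted p = 0.233). Of these HLA-E and TAPBP had an unadjusted p under 0.05, and the remaining gene with one was CALR, a chaperone of class I chains, named after its values were seen (-0.34, limma adjusted p = 0.154). IRF1, an activator of PSMB8 and PSMB9 under interferon, had 14.5 and 14.7 TPM in the NC samples and 15.4 and 17.9 TPM after knockdown. HLA-E, TAPBP, TAP1 and TAP2 also match alternate contigs, and of the 9 genes in this list without such copies 0 were called. After GC correction 4 of the 17 passed, 2 lower and 2 higher, where 16.6% of all genes were called, and the median was 0.02. Without sh-ANP32B replicate 1 the count was 6, and without sh-ANP32B replicate 2 it was 4, where 24.3% and 20.7% of all genes were called.

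The genes around PSMB5 on chromosome 14 were read to see whether its low level extended along the chromosome. The nearest protein-coding gene in the table on the side of lower coordinates, C14orf93, lies 6.38 kb away. It had 7.29 and 7.74 TPM in the NC samples and 5.39 and 4.99 TPM after knockdown, a log2 difference of -0.46 (limma adjusted p = 0.251). On the other side CDH24, 11.8 kb away, differed by -0.07 in log2 (limma adjusted p = 0.861). The next genes outward, AJUBA, HAUS4, ACIN1 and C14orf119, had log2 fold changes of 0.09, -0.28, 0.12 and -0.19. Of the 6 neighbours 0 were called, where 3.32% of all genes tested were, so a count this low says nothing particular about the 6. Among them HAUS4 passed after GC correction (-0.36 in log2, limma adjusted p = 0.0291) and without sh-ANP32B replicate 2, and ACIN1 passed without sh-ANP32B replicate 1 (0.29, limma adjusted p = 0.0361). The unnamed transcript ENSG00000279656, which lies inside PSMB5 on the same strand, was between 2.47 and 4.20 TPM in the 4 samples.

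Among 9742 other genes with a mean of at least 10 TPM, those with values most like PSMB5 across the 4 samples, centred on the NC mean, were ANXA2P2, MFAP4, MTHFD1, CTDSPL and MT-TL2. Their distances from PSMB5 on the log2(TPM + 1) scale were between 0.529 and 0.667. None of the 5 encodes a proteasome subunit. Such genes are few among the 9742 compared, and PSMB5 was chosen for its low level, so this says nothing particular about the proteasome. MTHFD1, an enzyme of folate metabolism, went from 97.5 and 114.1 TPM to 33.4 and 42.4 TPM, and MFAP4 from 57.3 and 51.9 TPM to 18.6 and 17.3 TPM. ANXA2P2 is a processed copy of ANXA2 and may share its reads.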

How the data were processed

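RNA sequencing of 4 Kasumi-1 samples was used, 2 NC and 2 sh-ANP32B, grouped by their titles. Per the labels, the authors aligned reads to hg38 with HISAT2 2.0.5. The deposited values are TPM made by the authors, and the unit was identified from the values, which sum to between 997812 and 998314 per sample. The quantification program, annotation and row filter are not given in the sources used here, and the depth, hence any counting interval, is unknown.

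Symbols, positions and GC content came from GENCODE v44 (hg38), which named 16986 of 18567 gene IDs. The 16817 genes that reached 1 TPM in 2 or more samples were fitted on log2(TPM + 1) by limma 3.58.1 with an abundance trend (R 4.3.3), two-sided, with Benjamini-Hochberg adjustment over all genes tested. A gene was called at an adjusted p under 0.05. Fold changes on this scale understate the change of low genes. The fit was tested on simulated data with errors independent between genes and samples. The simulation lacked the link of replicate gaps to GC content seen here, so it does not show how the calls fare under that link. Copies were sought with minimap2 2.31 at 95% identity over 90% of the canonical transcript. GC correction was a loess fit in each sample. The members and gene lists were chosen with earlier results of these data known. Named genes were the members, list genes past the threshold or, where a list had none, its 3 largest changes, 3 neighbours on each side of PSMB5, and the 5 genes nearest PSMB5 in pattern. The alternatives were other scalings, filters and pseudocount, no trend, replicate blocks, GC correction and leaving out each replicate. No value above 0 was identical between replicates.

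The titles number the replicates 1 and 2 in both groups without saying what a shared number means. Centred on their group means, samples of equal number were correlated across genes at -0.0925 (Pearson) and -0.168 (Spearman), a description of these libraries.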

Additional observations from a re-analysis of the deposited data

How the results depend on the processing

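PSMB5 stayed between -1.998 and -1.91 in log2 fold change over 10 alternatives, and between -2.03 and -1.78 when each replicate was left out. PSMB7 and POMP were below 0 and not called in all of their alternatives, PSMB6 was below 0 in all and was called in 3 (with GC correction, with the block besides, and without sh-ANP32B replicate 2), and PSMB8 and PSMB9 were below 0 in all alternatives that used every sample. PSMB9 was not tested where every sample had to reach 1 TPM. PSMB10 was -0.0399 with GC correction, whether or not a replicate block was added. AJUBA was -0.0031 with quantile normalization and -0.00698 with GC correction, whether or not a replicate block was added. Leaving out each replicate in turn moved the fold change in log2 from -1.35 to 0.49 for PSMB8, from -2.77 to 0.15 for PSMB9, from -0.30 to 0.66 for PSMB10, from -0.11 to 0.29 for AJUBA, from -0.151 to 0.0124 for CDH24 and from -0.0395 to 0.289 for ACIN1.

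The number of genes called, 559 as reported, was 0 without the abundance trend (3701 at an unadjusted p under 0.05), 2557 with GC correction, 1473 under the replicate block, 1853 under both block and GC correction, and 273 to 4079 when each replicate was left out. Of these calls 199 were lower and 360 higher as reported, and 1335 lower and 1222 higher with GC correction. With median-of-ratios scaling the split was 288 lower and 230 higher, and with quantile normalization 234 and 244. The members other than PSMB5 called, 0 as reported, were 1 with the replicate block (PSMB9), 1 with GC correction and 1 with both block and GC correction (PSMB6 in both), and 0 to 2 when each replicate was left out. The other proteasome genes called, 1 as reported, were 0 without the trend, 21 with GC correction, 2 under the replicate block, 11 under both block and GC correction, and 0 to 19 when each replicate was left out. The antigen presentation genes called, 0 as reported, were 4 with GC correction and 0 to 6 when each replicate was left out. The causes were not tested. The lone sample left in a group by these fits is assumed to vary like the samples of the other group.

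As the Spearman rho of same-numbered samples was below -0.1, a crossed replicate block was added after seeing the data. It called 1995 genes, which is 11.9% of all genes tested. It called 0 members other than PSMB5, 6 of the 48 other proteasome genes and 2 of the 17 antigen presentation genes. The last 2 counts are near that share. The replicate numbers are not shown to pair the samples. In log2 difference, leaving out each replicate gave PSMB8 to PSMB5 a range of 0.46 to 2.53, PSMB9 to PSMB6 one of -4.92 to 0.29 and PSMB10 to PSMB7 one of -0.04 to 0.67.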
